A study of Mus musculus with 6 samples.

Results

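The genes *Fos*, *Fosb*, *Fosl1*, *Fosl2*, *Jun*, *Junb*, *Jund* and *Atf3* encode subunits of the activator protein 1 (AP-1) transcription factor, and they were followed in MLO-Y4 cells treated with low-intensity pulsed ultrasound (LIPUS). They were taken by symbol from a deposited table of 53797 genes, in which each of the 8 symbols occurred once. MLO-Y4 is a single established mouse line with features of osteocytes, the mechanosensitive cells embedded in bone. In the LIPUS group (3 cultures), cells received pulsed ultrasound of 1.5 MHz at 30 mW/cm2 for 20 min, and RNA was extracted after a further 30 min. The untreated Control group (3 cultures) was kept in wells with unplugged transducers, on a plate shared with LIPUS wells. Both groups grew in the same medium with serum. By the paper's account, the experiment was done in 3 independent repeats. The comparison addresses which genes respond in osteocytic cells soon after ultrasound.

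AP-1 is a dimer of proteins that share a basic region, which contacts DNA, and a leucine zipper, which holds the partners together. Jun proteins pair with each other or with Fos proteins, whereas Fos proteins need a partner from another family. *Fos*, *Fosb*, *Jun*, *Junb* and *Atf3* are classical immediate early genes, switched on without new protein synthesis after growth factors, stress or mechanical load, and their transcripts are short-lived. In bone, AP-1 factors act in osteoblasts and osteoclasts.

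The table gave 1 expression value per gene and group, in FPKM (fragments per kilobase of exon, scaled to the size of the library), a unit per transcript length that allows levels of different genes to be compared. Each value is the authors' pooled value of the 3 libraries of a group. The table holds no value of a single culture, no SD and no read counts, so that the depth behind each value cannot be read from it. No test between the groups was run, and all differences below are descriptions of these pooled values without a replicate check. The study describes a Control library that stood apart from the rest of its group and names possible spread of ultrasound to control wells of the shared plate. Each pooled Control value includes that library, and its part in the values could not be tested. A gene was counted as higher or lower with LIPUS when the FPKM of the groups differed by a ratio of at least 1.5. This ratio was formed for 11465 genes with a mean FPKM of at least 1 and an FPKM above 0 in both groups.

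With LIPUS, *Fosb* and *Junb* were higher by at least 1.5-fold, and no AP-1 gene was lower by as much. *Fosb* was 2.30-fold higher and *Junb* 1.62-fold higher. *Fos* (1.48-fold higher) and *Atf3* (1.49-fold lower) lay just inside the limit, and *Junb* was the member just outside it. Of the 8 genes, 6 had a higher and 2 a lower FPKM with LIPUS. The count of 2 of 8 higher genes stands beside 7.48% of all 11465 genes that were higher and 8.08% that were lower at this ratio, 15.6% in either direction. Ratios scattered less among abundant genes, and 3.39% of the 6720 genes with a mean FPKM of at least 10 were higher and 3.26% lower (6.65% in either direction), beside 2 and 0 of the 7 AP-1 genes at this level. When a difference of 25% was counted, 3 AP-1 genes were higher and 1 was lower, beside 16.8% and 17.8% of all genes (34.6% in either direction). At a ratio of 2, only *Fosb* was counted, beside 2.66% of all genes that were higher and 2.83% lower (5.49% in either direction). The median log2 ratio of the 8 genes was 0.28, beside -0.0014 over all genes.

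**Figure D1:**
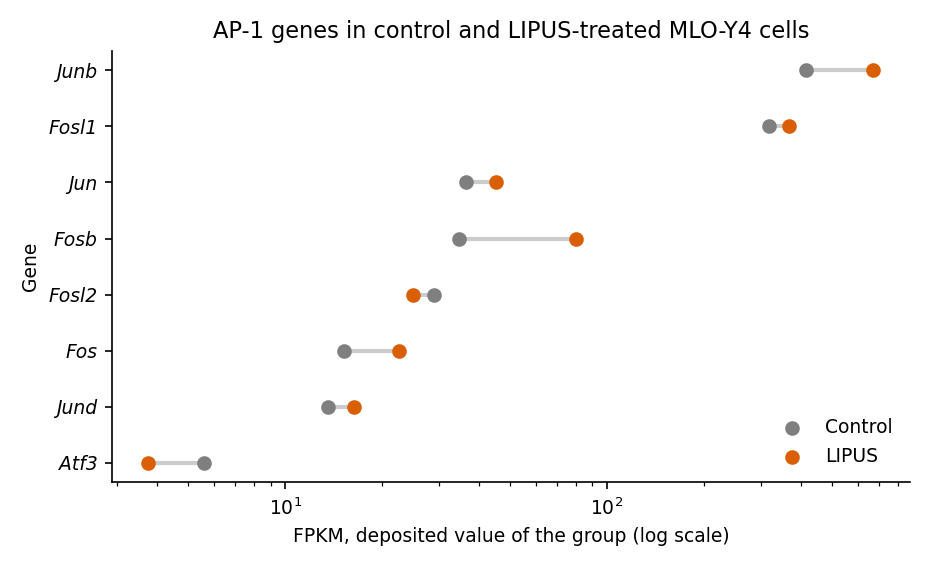
FPKM of the 8 AP-1 genes on a log axis, with 1 point for the pooled Control value (grey) and 1 for the pooled LIPUS value (orange) of each gene, ordered by the Control level. *Junb* and *Fosl1* stand apart at 318 FPKM and more, the widest gap between the groups is that of *Fosb*, and the LIPUS point lies left of the Control point only for *Fosl2* and *Atf3*.

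Among the Fos proteins, *Fosb* encodes a full-length activator and, by alternative splicing, a truncated and more stable form. *Fosb* had an FPKM of 34.8 in Control and 80.1 in LIPUS, a log2 ratio of 1.20. This was the 20th highest ratio of the 6720 genes with a mean FPKM of at least 10, and 1.60% of all 11465 genes had a ratio as high. The table gives a single value for all forms of *Fosb*, so that the full-length and truncated transcripts were not told apart. *Fosb* (ENSMUSG00000003545) lies on chromosome 7 of GRCm38 from 19302696 to 19310051 on the minus strand, with 7 transcripts in GENCODE M21.

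*Fos*, the prototype of the family, had an FPKM of 15.2 in Control and 22.5 in LIPUS, a log2 ratio of 0.57. Of all 11465 genes 7.99% had a ratio as high, and of those with a mean FPKM of at least 10, 3.85%. *Fos* thus remained among the less abundant members in both groups, and the level of *Fosb* was 2.28 times that of *Fos* in Control and 3.55 times in LIPUS. *Fos* (ENSMUSG00000021250) lies on chromosome 12 from 85473890 to 85477273 on the plus strand.

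*Fosl1* and *Fosl2* encode Fra-1 and Fra-2, which lack the strong activation domain of Fos and are known to accumulate later after a stimulus. *Fosl1* had an FPKM of 318 in Control and 369 in LIPUS, a log2 ratio of 0.21. *Fosl2* had an FPKM of 29.0 in Control and 24.9 in LIPUS, a log2 ratio of -0.22. Both ratios were common, as 24.7% of all 11465 genes were at or above that of *Fosl1* and 24.8% at or below that of *Fosl2*. *Fosl1* was nonetheless the most abundant Fos gene in each group, at 20.9 times the level of *Fos* in Control and 16.4 times in LIPUS. The deposited position of *Fosl1* (ENSMUSG00000024912) is chromosome 19 from 5447703 to 5455945, and that of *Fosl2* (ENSMUSG00000029135) chromosome 5 from 32135801 to 32157842.

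Of the Jun genes, *Junb* encodes a Jun protein that activates less strongly than Jun at single AP-1 sites and can oppose it. *Junb* had an FPKM of 415 in Control and 673 in LIPUS, a log2 ratio of 0.70. Over the whole table, 205 genes had a higher FPKM than *Junb* in Control and 137 in LIPUS. Among the 951 genes with a mean FPKM of at least 100, 2.94% were higher by at least 1.5-fold and 1.68% lower (4.63% in either direction), and *Junb* was among the higher ones. *Junb* was the most abundant AP-1 gene in both groups, at 11.4 times the level of *Jun* in Control and 14.9 times in LIPUS. The deposited position of *Junb* does not span its coding transcript, so that its FPKM and ratio may not be those of the coding gene. The same holds for the sums and shares below that include *Junb*.

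*Jun*, whose protein is the main partner of Fos and is activated by JNK kinases, had an FPKM of 36.4 in Control and 45.1 in LIPUS, a log2 ratio of 0.31. *Jund*, known as the most evenly expressed Jun gene, had an FPKM of 13.6 in Control and 16.3 in LIPUS, a log2 ratio of 0.26. Ratios at least as high as these were found for 17.6% (*Jun*) and 21.0% (*Jund*) of all 11465 genes. *Jun* was slightly above *Fosb* in Control, at 1.05 times its level, whereas in LIPUS *Fosb* was at 1.77 times the level of *Jun*. This was the only change in the order of the 8 genes, which otherwise ran in both groups from *Junb* and *Fosl1* over *Fosl2*, *Fos* and *Jund* down to *Atf3*. Whether neighbours in this order differ beyond the spread between cultures cannot be read from pooled values.

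*Atf3*, a stress-induced member of the ATF branch that represses many targets as a homodimer, had an FPKM of 5.58 in Control and 3.75 in LIPUS, a log2 ratio of -0.57. It was the only member that the authors' program marked NOTEST, its mark for a gene it did not test, while the other 7 were marked OK. Of all 11465 genes, 8.36% had a ratio as low. The direction of *Atf3* was therefore opposite to that of the other immediate early members *Fos*, *Fosb*, *Jun* and *Junb*. *Atf3* (ENSMUSG00000026628) lies on chromosome 1 from 191170296 to 191218039 on the minus strand.

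**Figure D2:**
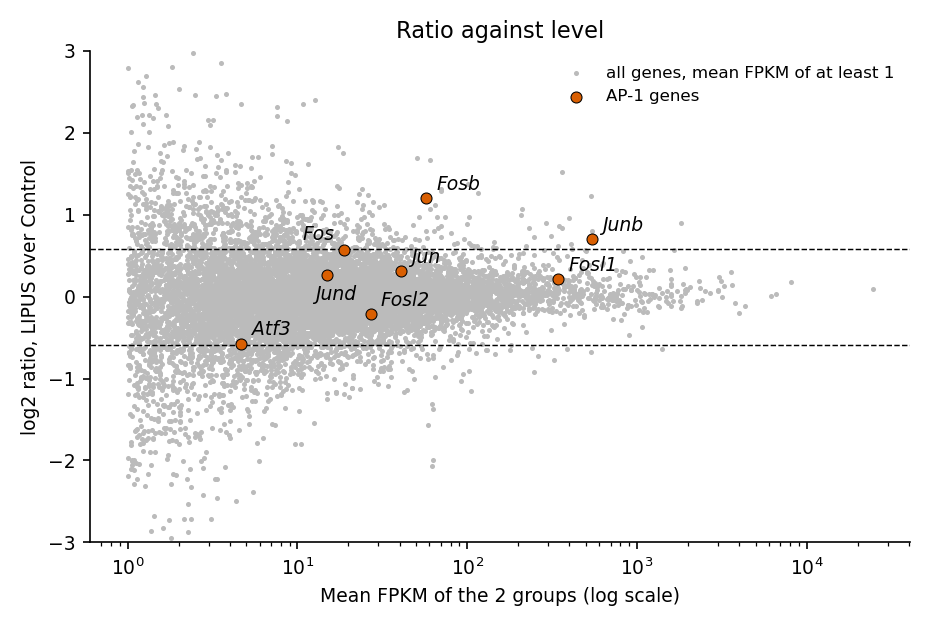
log2 ratio of LIPUS over Control against the mean FPKM of both groups on a log axis, for 11465 genes (grey) and the 8 AP-1 genes (orange), with dashed lines at a ratio of 1.5 in either direction; 26 genes beyond a log2 ratio of 3 in either direction are outside the axis. The grey cloud narrows with level, *Fosb* and *Junb* lie at its upper edge and the other 6 genes lie between the dashed lines.

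The summed FPKM of the 8 genes was 868 in Control and 1234 in LIPUS, a ratio of 1.42. *Junb* made up 47.8% of this sum in Control and 54.5% in LIPUS, and its difference of 258 FPKM was 70.4% of the whole difference. The share of *Fosl1* was 36.7% in Control and 29.9% in LIPUS. *Fosb*, with the largest ratio, went from 4.01% to 6.49% of the sum. The summed level of the 3 Jun genes was 1.58-fold higher with LIPUS (465 in Control, 734 in LIPUS) and that of the 4 Fos genes differed by a log2 ratio of 0.32 (397 and 496). Transcripts of Jun genes per transcript of Fos genes thus amounted to 1.17 in Control and 1.48 in LIPUS. Of the difference of 269 FPKM between the Jun sums, *Junb* alone made up 258. Without *Junb*, the sum of the other 7 genes was 1.24-fold higher. In such bulk samples, more RNA per cell and more cells that express a gene cannot be told apart.

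**Figure D3:**
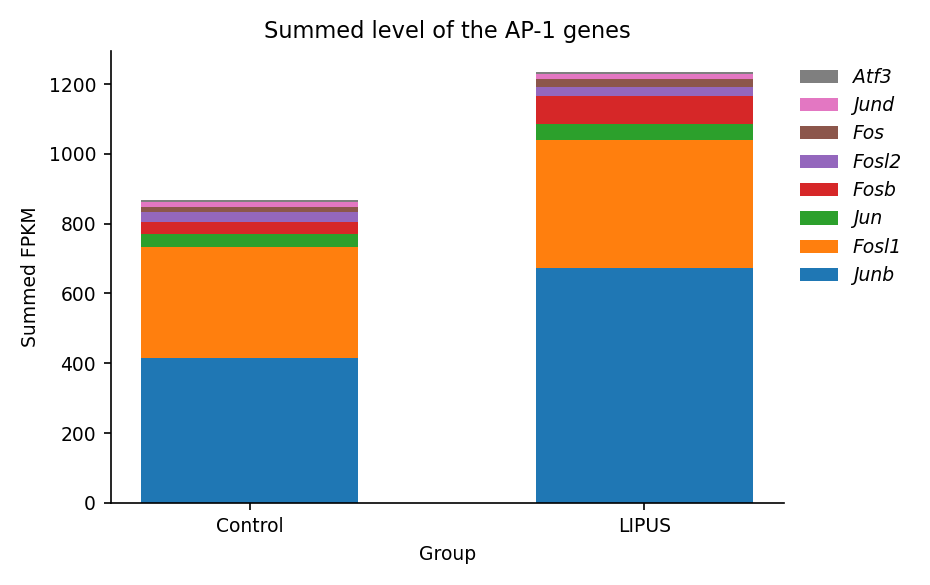
Stacked bars of the summed FPKM of the 8 AP-1 genes in Control and LIPUS, each colour a gene. The bars reach 868 and 1234, and *Junb* (lowest block) accounts for most of the difference.

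*Jund*, *Jun*, *Junb* and *Fosl1* share annotated exonic bases with neighbouring genes of the other strand, so that their FPKM may not stand for the gene alone. *Jund* (ENSMUSG00000071076), a gene of 1 exon on chromosome 8 from 70698949 to 70700616 on the plus strand, contains the antisense gene *Gm11175* (70699162 to 70700080, minus strand). All 877 exonic bases of *Gm11175* lie in the exon of *Jund* and cover 52.6% of it. *Gm11175* had an FPKM of 42.8 in Control and 62.9 in LIPUS, a log2 ratio of 0.56, and so 3.14 and 3.86 times the level of *Jund* itself. The libraries were made with a stranded kit, but whether strand was used to compute the FPKM is not given in the sources used here, so reads of *Jund* and *Gm11175* may have been split between both names. In the table, 20 antisense genes lie wholly within an exon of a coding gene of the other strand that had a mean FPKM of at least 10. Of these, 14 had a mean FPKM of at least 1 and 2 exceeded their host in both groups, one of them *Gm11175*.

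*Jun* (ENSMUSG00000052684), also a gene of 1 exon (chromosome 4 from 95049034 to 95052222, minus strand), overlaps the antisense gene *Junos* by 232 exonic bases, 7.28% of *Jun*. *Junos* had an FPKM of 12.2 in Control and 10.7 in LIPUS, opposite in direction to *Jun*. The position that the table gives for *Jun* runs to 95167318 and takes in *Junos*. For *Junb* (ENSMUSG00000052837), GENCODE M21 lists a coding transcript of 1809 bases (chromosome 8 from 84976910 to 84978718, minus strand) and a noncoding one of 492 bases (84974484 to 84976542). The position that the table gives for *Junb* runs from 84956610 to 84976542, ends with the noncoding transcript and takes in *Prdx2* and *Rnaseh2a*. This position holds none of the coding transcript. Which *Junb* transcripts entered the deposited value was not stated. *Prdx2*, which encodes a peroxiredoxin and shares 173 exonic bases with the noncoding *Junb* transcript, had an FPKM of 115 in Control and 109 in LIPUS. *Rnaseh2a*, which encodes a subunit of ribonuclease H2, had 27.4 and 30.8. The log2 ratio was -0.081 for *Prdx2* and 0.17 for *Rnaseh2a*, beside 0.70 for *Junb*. The part of either gene in the *Junb* value was not tested. In GENCODE M21, *Ccdc85b* overlaps 57.2% of the exonic bases of *Fosl1*, but the position that the table gives for it (chromosome 19 from 5456789 to 5457397) lies outside *Fosl1*. *Ccdc85b* had an FPKM of 31.0 in Control and 40.7 in LIPUS.

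Promoter sequences from RefSeq (GRCm38.p6) were matched by symbol for 7 of the 8 genes. The 250 bases upstream of the start site were searched on both strands for TGACG, the core of a cAMP response element that is bound by CREB and ATF dimers. It was present for *Fosb*, *Junb*, *Fos* and *Atf3* and not found in the windows of *Jun*, *Fosl2* and *Jund*. The window of *Junb* precedes its coding transcript, which the deposited position of *Junb* does not hold. The window of *Jund* ends upstream of the GENCODE M21 start of the gene (at 70697738, before 70698949) and that of *Fosl2* lies downstream of it (from 32136222, after 32135801), so that these windows do not hold the bases before those starts. Of all 32851 promoter windows of this length, 17.8% held TGACG, and of the 11121 windows of genes with a mean FPKM of at least 1, 27.5%. The 4 windows are shown 5′ to 3′ with TGACG, or its reverse complement CGTCA, in capitals:
Fosb, chr7:19310046-19310295, minus strand: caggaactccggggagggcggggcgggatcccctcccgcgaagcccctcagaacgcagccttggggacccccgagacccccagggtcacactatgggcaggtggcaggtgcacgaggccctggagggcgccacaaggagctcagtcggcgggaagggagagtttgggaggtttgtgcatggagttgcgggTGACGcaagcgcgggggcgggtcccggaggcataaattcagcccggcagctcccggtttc
Junb, chr8:84978749-84978998, minus strand: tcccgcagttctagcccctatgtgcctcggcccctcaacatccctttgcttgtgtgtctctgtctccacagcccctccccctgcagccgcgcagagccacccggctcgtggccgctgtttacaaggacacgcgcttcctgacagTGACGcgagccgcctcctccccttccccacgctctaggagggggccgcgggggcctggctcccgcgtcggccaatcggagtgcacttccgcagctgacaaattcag
Fos, chr12:85473640-85473889, plus strand: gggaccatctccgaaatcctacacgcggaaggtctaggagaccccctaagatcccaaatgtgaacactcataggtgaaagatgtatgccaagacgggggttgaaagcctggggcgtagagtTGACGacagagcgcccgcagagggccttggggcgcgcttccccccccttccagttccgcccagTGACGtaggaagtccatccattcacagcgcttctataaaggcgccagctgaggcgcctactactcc
Atf3, chr1:191183334-191183583, minus strand: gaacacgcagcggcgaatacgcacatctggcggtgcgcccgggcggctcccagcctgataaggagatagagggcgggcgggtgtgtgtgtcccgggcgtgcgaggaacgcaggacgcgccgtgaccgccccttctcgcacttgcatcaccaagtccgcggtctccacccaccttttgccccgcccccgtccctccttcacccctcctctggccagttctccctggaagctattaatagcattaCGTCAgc
In *Fosb* the match began 60 bases before the start site, in *Junb* 106, and in *Fos* 129 and 66. In *Atf3* it began 7 bases before the start, on the reverse strand. The GENCODE M21 coding transcript of *Atf3* starts at 191183340, the first base of this match, so that the match lies upstream of the RefSeq start but inside that transcript. Only *Fos* held the TATA sequence TATAAA, 33 bases before its start, which 12.4% of all windows contain and 6.13% of those of genes with a mean FPKM of at least 1. The full element TGACGTCA (1.55% of all windows, 2.69% of those of genes with a mean FPKM of at least 1), the AP-1 site TGACTCA (4.46% and 3.13%) and the CArG box bound by serum response factor (1.47% and 1.16%) occurred in none of the 7 windows. TGACG is contained in the full element. Bases further upstream than 250 were not searched, so that the absence of a site holds for these windows only. Sites that differ from the searched letters, such as TGACATCA in the window of *Jun*, were not counted. GGGCGG, the GC box, occurred for 5 of the 7 genes (*Fos*, *Fosb*, *Fosl2*, *Jun* and *Atf3*), beside 32.7% of all windows and 59.1% of those of genes with a mean FPKM of at least 1. *Atf3* has a further transcript that starts upstream of the window. These are matches of letters and not measured binding.

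Transcripts of immediate early genes often carry AU-rich elements in the 3′ UTR, built of the pentamer ATTTA, which bind decay factors such as tristetraprolin. The coding transcripts in GENCODE M21 had 4 ATTTA in *Fos*, 4 in *Jun*, 8 in *Fosl2*, 3 in *Atf3*, 2 in *Junb* and 1 each in *Fosb*, *Fosl1* and *Jund*. Of 10473 genes with a mean FPKM of at least 1, 9.17% had at least 8 and 26.5% at least 4. At least 3 were found in 34.6%, at least 2 in 46.7% and at least 1 in 66.2%. Per kilobase of 3′ UTR the density was highest in *Fos* (4.91), *Junb* (4.12) and *Jun* (3.24), against a median of 1.252 over 10473 genes with a mean FPKM of at least 1. Densities as high were found in 7.13% (*Fos*), 10.5% (*Junb*) and 17.7% (*Jun*) of these genes. The 3′ UTR of *Junb* is that of its coding transcript, which the deposited position of *Junb* does not hold. *Fosb*, with the largest ratio, had the lowest density, 0.466. For the genes with the highest density, the 30 bases with the most pentamers are shown as DNA letters, with ATTTA in capitals:
Fos, from base 642 after the stop codon: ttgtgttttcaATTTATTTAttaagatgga
Junb, from base 239 after the stop codon: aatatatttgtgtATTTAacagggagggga
Jun, from base 1031 after the stop codon: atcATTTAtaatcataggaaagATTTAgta
In *Fos* the pentamers overlap by 1 base, whereas in *Jun* they stand apart and the window of *Junb* holds 1.

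The AP-1 genes were set beside the Egr and Nr4a genes, the other immediate early transcription factors most like them. *Egr1*, *Egr2*, *Egr3* and *Egr4*, which encode zinc finger activators, were all higher by at least 1.5-fold. *Egr2* had an FPKM of 56.6 in Control and 147 in LIPUS, and *Egr1* 166 and 296. *Nab2*, which encodes a corepressor of the Egr proteins, had 77.0 in Control and 52.9 in LIPUS. The orphan nuclear receptor genes *Nr4a1*, *Nr4a2* and *Nr4a3* were higher as well, at log2 ratios between 0.94 and 1.13. *Nr4a3*, with the highest of these, had 2.21 in Control and 4.85 in LIPUS and was marked NOTEST. The median log2 ratio was 1.05 over the 6 Egr and Nab genes and 0.97 over the 3 Nr4a genes, beside 0.28 over the AP-1 genes, and 4 of 6 and 3 of 3 were higher, beside 2 of 8 and 7.48% of all genes. At a mean FPKM of at least 10, 3 of 5 Egr and Nab genes and 2 of 2 Nr4a genes were higher. Beside them stand 2 of 7 AP-1 genes and 3.39% of all genes at that level. These differences between families could not be tested. The log2 ratio of *Fosb* lay between those of *Egr1* (0.83) and *Egr2* (1.37), and that of *Junb* below that of each Egr and Nr4a gene.

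Besides the 8 genes, 20 other leucine zipper factors that can pair with AP-1 subunits or act beside them were listed, and 15 had a mean FPKM of at least 1. One was higher (*Crem*), 2 were lower (*Batf2* and *Cebpd*), beside 7.48% and 8.08% of all genes, and the median log2 ratio was 0.21. *Crem*, *Batf2* and *Cebpd* were marked NOTEST. Of the 10 factors with a mean FPKM of at least 10, none passed the limit, beside 6.65% of all genes at that level. *Crem* encodes cAMP-responsive activators and repressors and had an FPKM of 3.72 in Control and 6.84 in LIPUS. *Maff*, a small Maf protein without an activation domain, lay just inside the limit at 28.3 in Control and 42.3 in LIPUS, and its relative *Mafk* had 22.1 and 30.8. The most abundant of these factors, *Atf4*, had 321 and 337.

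The genes of the upstream machinery were counted in the same way, beside 15.6% of all genes past the limit in either direction. Of 10 measured genes for serum response factor, its ternary complex and Mef2 partners and their cofactors, none was higher and 1 was lower (*Mkl2*, a cofactor of serum response factor, 5.29 in Control and 3.39 in LIPUS), with a median log2 ratio of -0.060. *Srf*, which recruits Elk proteins to the *Fos* promoter, had 74.8 in Control and 80.5 in LIPUS, and *Ep300*, a histone acetyltransferase, 15.7 and 10.9. Of 18 measured MAP kinase genes, none was higher and 2 were lower (*Rps6ka1* and *Rps6ka5*, both below 3 FPKM), with a median of -0.14. *Mkl2*, *Rps6ka1* and *Rps6ka5* were marked NOTEST. With a mean FPKM of at least 10, none of 7 serum response factor genes and none of 13 kinase genes passed, beside 6.65% of all genes. *Mapk8*, which encodes the Jun kinase JNK1, had 19.4 and 17.6. The activity of these kinases is set by phosphorylation and is not measured by RNA.

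Among 12 genes for turnover of Jun and Fos proteins and for mRNA decay, 1 was higher and 2 were lower, beside 7.48% and 8.08% of all genes, with a median log2 ratio of -0.067. *Zfp36*, which encodes tristetraprolin, had an FPKM of 10.8 in Control and 23.3 in LIPUS, a log2 ratio of 1.11. Its paralogue *Zfp36l1* had 38.5 in Control and 24.3 in LIPUS, a log2 ratio of -0.67. *Fbxw7*, whose product targets phosphorylated Jun for degradation, had 8.09 in Control and 4.55 in LIPUS.

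Of 19 measured genes that are known AP-1 targets in other settings, 5 were higher and 1 was lower, with a median log2 ratio of 0.19. All 19 had a mean FPKM of at least 10, a level at which 3.39% of genes were higher and 3.26% lower. The list was chosen with results of these data known. *Mmp3* and *Mmp13*, which encode matrix metalloproteinases, had an FPKM of 40.5 and 245 in Control and 99.0 and 446 in LIPUS. *Ptgs2*, which encodes cyclooxygenase 2, had 205 in Control and 381 in LIPUS. The cytokine gene *Il6* had 8.98 and 16.5, and *Plau*, which encodes urokinase, 271 and 416. *Ccl2*, a chemokine gene, was lower, with 23.7 in Control and 12.9 in LIPUS. Of the other 13, *Hmox1* lay just inside the limit (96.7 in Control, 144 in LIPUS). The 13 also included abundant genes with close values in both groups, such as *Timp1* (1497 and 1668) and *Spp1* (4514 and 4158). Of the integrated stress response genes, which act with *Atf3* when translation is impaired, none of 7 was higher and 2 were lower. This stands beside 7.48% and 8.08% of all genes with a mean FPKM of at least 1. The median log2 ratio of the 7 was -0.16. Of the 4 with a mean FPKM of at least 10, none passed the limit, beside 6.65% of all genes at that level. *Ddit3*, a partner of ATF proteins, had 19.6 in Control and 21.2 in LIPUS, while *Trib3* had 4.47 and 1.05 and *Chac1* 8.30 and 5.27.

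**Figure D4:**
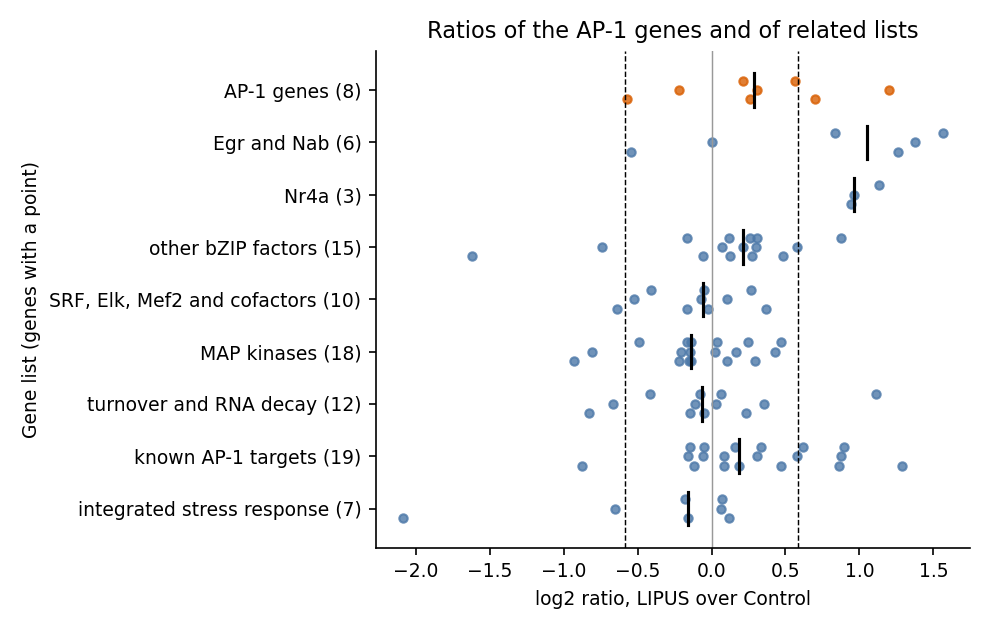
log2 ratio of LIPUS over Control for the 8 AP-1 genes (orange) and the genes of 8 related lists (blue) with a mean FPKM of at least 1, 1 point per gene, with the median of each list as a black bar and dashed lines at a ratio of 1.5 in either direction. The medians of the Egr and Nr4a lists lie further to the right than that of the AP-1 genes, *Fosb* lies beyond each Nr4a gene, and the kinase and serum response factor lists centre near 0.

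Over both group levels, the genes closest to *Fosb* in log2 FPKM were *Ifi27* (38.7 in Control, 81.5 in LIPUS, distance 0.16), *Dmpk* (34.9 and 68.6, distance 0.22) and *Gadd45b* (40.8 and 88.6, distance 0.27), out of 11464 compared. Closest to *Junb* were *CT010467.1* (398 and 691, distance 0.070), *Il1rl1* (405 and 596, distance 0.18) and *Txnrd1* (400 and 592, distance 0.19). This likeness rests on 2 values per gene.

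As a check of the cells, 13 osteocyte and osteoblast markers were read. *Sost*, *Mepe* and *Fgf23*, which mark mature osteocytes, were listed at 0 in both groups, *Dmp1* had 3.04 in Control and 7.65 in LIPUS, and the osteoblastic *Spp1* and *Col1a1* were abundant. From the same list, *Pdpn* had 295 in Control and 402 in LIPUS, *Gja1* 176 and 170, and *Sparc* 998 and 1101. *Phex* (0 and 0.190) and *Bglap* (0 and 1.58) were low. Of the 8 markers with a mean FPKM of at least 1, *Dmp1* was higher by at least 1.5-fold and 2 were lower, the osteoblast regulator *Runx2* (24.4 in Control, 14.8 in LIPUS) and the phosphatase gene *Alpl* (293 and 190). Of all genes at this level, 7.48% were higher and 8.08% lower. Of 6 immune markers, 5 were at 0 in both groups and *Cd68* had 5.32 in Control and 1.72 in LIPUS. Summed over 3 genes each, endothelial markers had 0.496 and 0, muscle markers 1.97 and 5.62 (all *Acta1*), and adipocyte markers 52.9 and 30.5 (nearly all *Fabp4*, with *Plin1* at 0). The part of these differences in the AP-1 values was not tested.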

How the data were processed

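RNA of 3 LIPUS and 3 Control cultures of MLO-Y4 cells was sequenced from stranded mRNA libraries. According to the submitters' processing notes, reads were trimmed with Trimmomatic 0.36, aligned to GRCm38 with TopHat2 2.1.0 and Bowtie2 2.2.6.0, and quantified with Cufflinks 2.1.1 (the methods name a later version) and Cuffdiff. The authors deposited a single FPKM per gene and group, pooled over the libraries, without counts. The study's methods state a nominal read number common to the samples, but the depth of each library and the reads behind each value cannot be read from the table, so that no precision is given. Their fold changes, test statistics, p-values and q-values were not used.

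Ratios of the 2 FPKM were formed without a pseudocount for genes with a mean FPKM of at least 1, and a ratio of 1.5 was counted. Genes listed at 0 in 1 group (71 at this level) received no ratio. The steps were tested on simulated data. Where a named or listed symbol had several entries, the most abundant was used, whereas counts over all genes kept every entry. All 8 members were named, with up to 4 genes of each list with the largest absolute log2 ratio at a mean FPKM of at least 10. Others were named for their role or because they lay past or near the limit, at any level. The 3 genes nearest in level to 2 members were named as well. *Gm11175*, *Junos*, *Prdx2*, *Rnaseh2a* and *Ccdc85b* were named after their values were seen. The members and lists were chosen with earlier results of these data known. Annotation was GENCODE M21 (the authors used Ensembl transcripts of the same build, whose release is not given in the sources used here), and promoters were those of RefSeq. Other ratios, minimum levels, pseudocounts and scalings were tried. Python 3.11.15, numpy 2.4.6, pandas 2.3.3 and matplotlib 3.10.9 were used.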

Additional observations from a re-analysis of the deposited data

How the results depend on the processing

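No paired analysis was possible because the table holds 1 pooled value per group, and for the same reason no replicate could be left out and the share of a single culture in any value is unknown, including that of the Control library that the study describes as apart from its group. The direction and the side of the 1.5-fold limit stayed the same for each of the 8 AP-1 genes under pseudocounts of 1 and 0.1 FPKM, centring on the median of all genes and upper quartile scaling. The median log2 ratio of the genes kept in each setting lay between 0.21 (5 genes, without *Jun*, *Jund* and *Junb*) and 0.43 (8 genes, with *Gm11175* read in place of *Jund*). This range also covers the settings above, a minimum mean FPKM of 10 and leaving out *Jund* and *Junb*. The settings that leave out or replace genes whose deposited positions hold other genes were chosen after seeing the data. With a difference of 25% counted, 4 of 8 AP-1 genes passed (3 higher, 1 lower), beside 34.6% of all genes. The count was 1 of 8 at a ratio of 2 (beside 5.49%) and 2 of 8 without a minimum FPKM (beside 22.8%). At a ratio of 1.5, it was 1 of 6 without *Jund* and *Junb*, beside 15.6% of all genes. Without *Jun*, *Jund* and *Junb* it was 1 of 5, beside the same 15.6%. Over the 8 related lists, 24 of 90 entries passed a ratio of 1.5 (beside 15.6% of all genes), 38 a difference of 25% (beside 34.6%) and 8 a ratio of 2 (beside 5.49%), and 13 of 69 passed 1.5 with a minimum mean FPKM of 10 (beside 6.65%). Of the 24, 4 were Egr and Nab genes, 3 Nr4a genes and 6 known AP-1 targets, and the rest came from the other lists. The lists were chosen with earlier results of these data known, so that these counts are a description only. *Atf4* and *Ddit3* are in both the leucine zipper and the stress response list and were counted in each. The summed FPKM of the AP-1 genes was 1.42-fold higher with LIPUS and 1.24-fold without *Junb*.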
